A study of Homo sapiens with 6 samples.

Results

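The 34 genes described here are the Fanconi anemia and homologous recombination repair genes of an RNA sequencing table that lists 60605 genes in all. Rows were matched by symbol to a list of names, and the match used no measured value. The list held 8 subunits of the Fanconi core complex, the FANCD2-FANCI clamp, 5 BRCA proteins and partners, 5 subunits of the XRCC2 and XRCC3 complexes, 3 strand exchange accessory and motor proteins, 5 break sensing and end resection factors, 2 joint molecule processing enzymes and 4 checkpoint kinases. A row was found for each of the 34, and each passed the filter on low counts.

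MDA-MB-231, a breast cancer line that lacks the estrogen and progesterone receptors, supplied poly(A)-selected RNA for 3 shControl and 3 shPUS1 libraries. The shControl cells carried a control hairpin and the shPUS1 cells a hairpin against PUS1, an enzyme that turns uridine into pseudouridine in tRNAs, mRNAs and other RNAs. The comparison asks which mRNAs differ once PUS1 is knocked down. The hairpins were delivered by lentivirus in a puromycin-resistant pLKO.1 vector, both groups stem from the same parental line, and no drug or radiation that damages DNA is named for the RNA sequencing cultures. The labels call the 3 libraries of a group biological replicates. Neither the labels nor the methods state whether they came from separate infections and selections, and the spread between them may be partly technical. Which of the designed hairpins the sequenced cells carried is not named in those texts.

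The Fanconi pathway repairs covalent links between the strands of DNA. A core complex of FANC proteins attaches ubiquitin to the FANCD2-FANCI clamp at a stalled replication fork, nucleases then cut the link out, and the broken arm is restored by homologous recombination, in which the broken end is cut back and, with the help of BRCA1 and BRCA2, paired with the sister copy. Cells use these steps in S and G2 phase, and inherited defects in BRCA1, BRCA2, PALB2, CHEK2 or ATM raise the risk of breast cancer.

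Depth and identity of the libraries were examined first. Library totals lay between 14241505 and 19625998 estimated counts, which limits the precision for the weakest members: RAD51B had 46 to 102 counts per library and FANCB 48 to 116. All 7 markers listed for MDA-MB-231 cells were expressed, from EGFR at 19.3 FPKM or more to VIM at up to 498 FPKM, while ESR1 and PGR were at or below 0.04 FPKM. ERBB2 and EPCAM, listed as absent or low, were detected at up to 6.91 and 3.12 FPKM, and of the 5 markers listed for other cell types PTPRC, CD3E and ALB were at or below 0.03 FPKM and PECAM1 at or below 0.46 FPKM. The fifth, the collagen gene COL1A1, was at 0.73 to 3.53 FPKM, with log2 fold changes of 1.11 with 6 libraries and 0.77 without shControl replicate 2 (edgeR, adjusted p = 0.11 and 0.0123), and its part in the members' values was not tested. PUS1 itself, the targeted gene (ENSG00000177192), was at 14.5, 27.5 and 12.1 CPM (counts scaled to a common library size by TMM) in shControl replicates 1, 2 and 3 and at 6.57, 5.47 and 5.37 CPM in the shPUS1 libraries. The groups did not overlap, and the log2 fold change was -1.64 ± 0.32 (SE, edgeR, adjusted p = 0.0462) with 6 libraries and -1.20 (adjusted p = 0.00311) without shControl replicate 2.

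The library shControl replicate 2 stood apart. The correlation of log2 CPM across genes was 0.9878 between shControl replicates 1 and 3 and 0.9613 and 0.9614 between each of them and replicate 2, while the shPUS1 libraries correlated at 0.993 or higher with each other. Differences between the groups were therefore fitted with 6 libraries and again with the 5 libraries without shControl replicate 2. The library was singled out by its values in these data, and p-values of the second fit do not account for that choice. The second fit has shControl replicates 1 and 3 as its only controls. The common biological coefficient of variation, the spread between replicates, was 0.22 with 6 libraries and 0.11 in the second fit. A gene was called where the edgeR quasi-likelihood test gave an adjusted p under 0.05 over all genes tested, 14748 with 6 libraries and 15130 without shControl replicate 2.

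In this comparison the mRNA of EME1, a subunit of the MUS81-EME1 nuclease that resolves joint DNA molecules, fell to 46.0% of its shControl level, and the other 33 members did not pass the test with 6 libraries. Without shControl replicate 2, 5 members fell: EME1, the checkpoint kinase CHEK2, the core complex subunit FANCF, BRCA1 and the strand exchange factor RAD51AP1. Among all genes tested 0.841% were called lower with 6 libraries and 8.79% without shControl replicate 2. No member passed the test in the other direction in either fit, beside 1.74% and 9.8% of all genes. The member nearest to such a call was FANCM, the DNA translocase that anchors the core complex, at 132% of its shControl level. In cell populations, fewer cells in the phases that use these genes and less mRNA per cell cannot be told apart.

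With 6 libraries 1 of 34 members was called lower and 0 higher, beside 0.841% lower and 1.74% higher among all genes tested. Past a log2 fold change of -1 there was the same 1 member, beside 0.481% of all genes. At an unadjusted p under 0.05 edgeR gave 10 members lower and 1 higher, beside 12.8% and 12.6% of all genes. DESeq2 called 5 members lower and 0 higher in the 6 libraries, beside 5.36% and 7.05% of the genes it tested, and the 5 were those that edgeR called without shControl replicate 2. Without that library edgeR called 5 of 34 lower and 0 higher, beside 8.79% and 9.8% of all genes, with EME1 past a log2 fold change of -1, beside 1.66%. At an unadjusted p under 0.05 there were 10 lower and 2 higher members in that fit, beside 17.2% and 17.3% of all genes.

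The 3 shPUS1 values lay below all 3 shControl values in 13 members, which were FANCF, FANCG, FANCD2, BRCA1, RAD51C, RAD51AP1, MRE11, RAD50, NBN, EXO1, BLM, EME1 and CHEK2, and above them in FANCM alone. Among all genes 17.3% lay entirely lower and 18.8% entirely higher. Without shControl replicate 2 there were 13 members entirely lower, beside 26.2% of all genes, and 4 entirely higher, beside 24.4%, the additional members being BRIP1, PALB2 and RAD54B. The median log2 fold change of the members was -0.48 with 6 libraries, beside -0.03 for all genes tested, and -0.11 without shControl replicate 2, beside -0.02. Thus most of the distance between the members and all genes was present only with shControl replicate 2 in the fit.

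**Figure D1:**
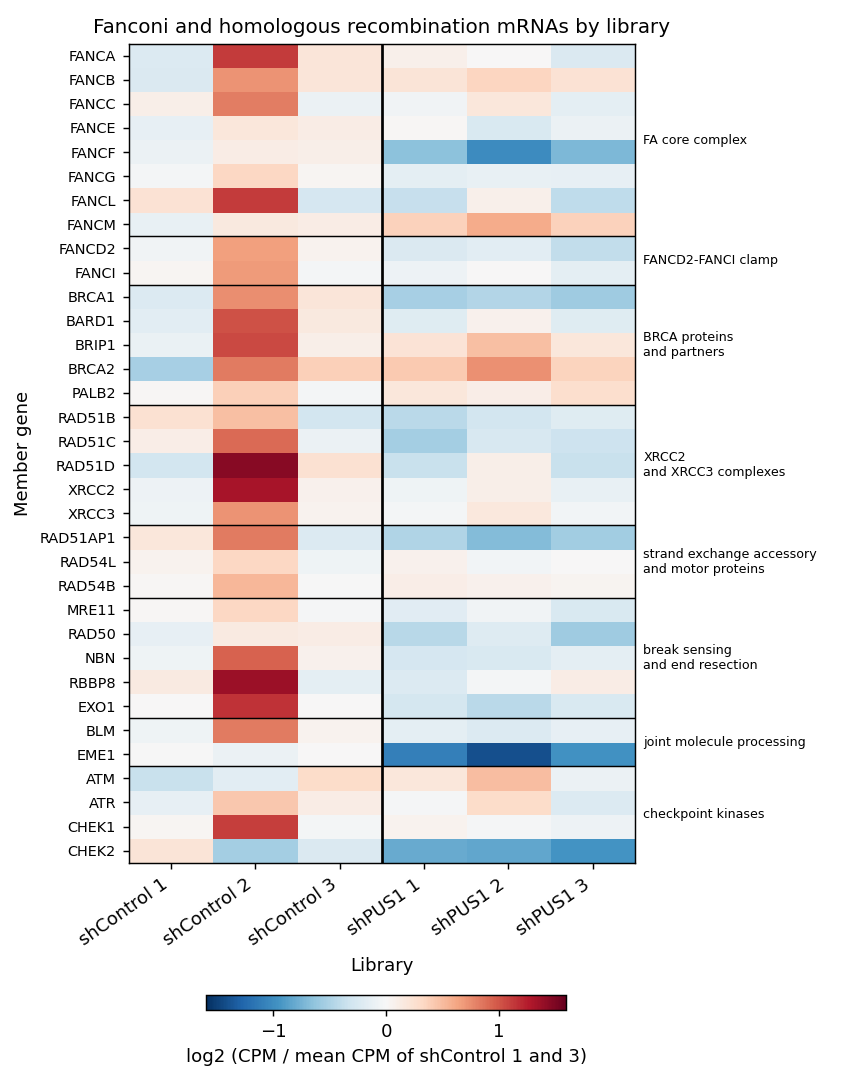
Each row is a member gene, grouped by role, and each column a library. The colour gives the log2 ratio of its CPM to the mean CPM of shControl replicates 1 and 3, on a scale from -1.6 (blue) to 1.6 (red). The column of shControl replicate 2 is red in most rows, while EME1, CHEK2 and FANCF are blue in the 3 shPUS1 columns.

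In 30 of the 34 members (88.2%) shControl replicate 2 had the highest CPM of the 6 libraries, against 34.4% of all genes tested. Its level over the mean of shControl replicates 1 and 3 ranged from 0.681 times in CHEK2 to 2.74 times in RAD51D, with a median log2 ratio of 0.71 over the members and of 0.01 over all genes. The S phase and proliferation list of 23 genes moved with it, since shControl replicate 2 was highest in 22 of them (95.7%), with a median log2 ratio of 1.03. The part of this library's S phase mRNAs in the fold changes of the members was not tested. The members in which it was not the highest were EME1, CHEK2, ATM and FANCM.

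EME1 (ENSG00000154920, chromosome 17, 50373220 to 50381483, plus strand) had 15.7, 14.8 and 15.9 CPM in shControl replicates 1, 2 and 3 and 7.38, 5.94 and 8.05 CPM in the shPUS1 libraries. The 3 shControl libraries lay close together, replicate 2 included, and every shPUS1 value was well below them. The log2 fold change was -1.12 ± 0.18 (SE, edgeR, adjusted p = 0.0341) with 6 libraries and -1.16 ± 0.16 (adjusted p = 0.00322) without shControl replicate 2. Among the left-out libraries, the 6-library call was lost when shControl replicate 1 or any shPUS1 library was left out, with adjusted p up to 0.222, while the log2 fold change stayed between -1.22 and -0.87 over the settings tried. Without shControl replicate 2 the call held in each setting tried, with adjusted p up to 0.0197. Exons of LRRC59 on the opposite strand cover 16.4% of the exonic bases of EME1, and whether the counting used strand is not given in the sources used here. LRRC59 had a log2 fold change of 0.22 (edgeR, adjusted p = 0.242).

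BLM, the helicase mutated in Bloom syndrome and the other joint molecule enzyme of the list, averaged 22.8 ± 8.23 CPM (SD, n = 3) in shControl and 16.1 ± 0.517 CPM in shPUS1. Its log2 fold change was -0.51 with 6 libraries and -0.18 without shControl replicate 2, and neither passed the test (edgeR, adjusted p = 0.24 and 0.301).

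Promoters of the members that moved most in each direction without overlap of the groups are shown for EME1, RAD51AP1 and FANCF, which were lower, and for FANCM, which was higher. The sequences are those of RefSeq on GRCh38.p14, from 250 bases before to 50 bases after the annotated transcript start, written 5′ to 3′ on the strand of the gene. Capitals mark the CCAAT letters, a motif bound by the factor NF-Y, which read ATTGG where they lie on the opposite strand. The windows are chr17:50372979-50373278 (plus) for EME1, chr12:4538640-4538939 (plus) for RAD51AP1, chr11:22625774-22626073 (minus) for FANCF and chr14:45135680-45135979 (plus) for FANCM.
EME1: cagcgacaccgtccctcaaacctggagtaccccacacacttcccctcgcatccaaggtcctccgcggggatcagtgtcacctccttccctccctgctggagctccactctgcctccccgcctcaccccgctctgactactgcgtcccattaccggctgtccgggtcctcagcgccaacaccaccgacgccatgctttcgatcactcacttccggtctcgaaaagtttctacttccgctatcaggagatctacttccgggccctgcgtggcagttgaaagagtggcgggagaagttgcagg
RAD51AP1: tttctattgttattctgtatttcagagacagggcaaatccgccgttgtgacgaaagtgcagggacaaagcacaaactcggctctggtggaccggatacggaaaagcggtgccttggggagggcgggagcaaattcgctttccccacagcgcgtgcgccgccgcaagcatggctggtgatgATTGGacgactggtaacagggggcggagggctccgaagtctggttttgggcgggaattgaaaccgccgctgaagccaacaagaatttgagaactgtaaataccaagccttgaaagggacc
FANCF: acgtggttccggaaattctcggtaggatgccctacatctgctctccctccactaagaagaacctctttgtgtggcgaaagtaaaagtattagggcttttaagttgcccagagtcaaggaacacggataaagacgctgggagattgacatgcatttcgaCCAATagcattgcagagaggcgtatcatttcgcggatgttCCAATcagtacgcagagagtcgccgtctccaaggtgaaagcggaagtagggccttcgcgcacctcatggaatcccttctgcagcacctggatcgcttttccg
FANCM: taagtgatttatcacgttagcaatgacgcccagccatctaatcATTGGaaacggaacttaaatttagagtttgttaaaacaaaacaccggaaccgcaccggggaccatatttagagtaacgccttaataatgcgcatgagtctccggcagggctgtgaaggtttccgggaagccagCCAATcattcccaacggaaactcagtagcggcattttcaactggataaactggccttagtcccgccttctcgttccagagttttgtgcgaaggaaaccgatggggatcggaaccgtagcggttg
The letters CCAAT occurred at -70 from the start in RAD51AP1, at -92 and -52 in FANCF and at -207 and -74 in FANCM, and were not in the EME1 window. In total 14 of the 31 members with a promoter in the table held CCAAT, against 39.7% of all genes in the table. The E2F letters TTTCCCGC, TTTCGCGC, TTTGCCGC or TTTGGCGC, searched on both strands, were in 5 of the 31, against 3.99% of all genes, and these were EXO1, FANCA, FANCC, FANCD2 and XRCC2. The letters TTTGAA or TTCGAA of the cell cycle homology region were in ATM, BRIP1 and FANCC, which is 3 of 31, against 19.5% of all genes. None of the 4 windows shown held these exact E2F or cell cycle homology letters, and EME1 held none of the 3 sets of letters. Sites that differ from these letters were not searched for.

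The checkpoint kinases signal broken or unreplicated DNA: ATM and ATR act first and activate CHEK2 and CHEK1. CHEK2 (ENSG00000183765, chromosome 22, 28687743 to 28742422, minus strand) had 22.6, 13.4 and 16.7 CPM in shControl replicates 1, 2 and 3 and 11.2, 11 and 10.1 CPM in the shPUS1 libraries. The groups did not overlap, and here shControl replicate 2 was the lowest control. The log2 fold change was -0.70 ± 0.22 (SE, edgeR, adjusted p = 0.107) with 6 libraries and -0.88 ± 0.15 (adjusted p = 0.00794) without shControl replicate 2, and DESeq2 called it with 6 libraries (adjusted p = 0.044). Without shControl replicate 2 it was called in each setting, with adjusted p up to 0.0373.

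CHEK1 had 61.5, 129 and 58.6 CPM in shControl replicates 1, 2 and 3 and 62.5, 59.2 and 56.7 CPM in the shPUS1 libraries. One library set its group difference, since shControl replicates 1 and 3 lay within the range of the shPUS1 libraries. Its log2 fold change was -0.48 with 6 libraries and -0.02 ± 0.09 without shControl replicate 2 (SE, edgeR, adjusted p = 0.896).

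ATM had 90.9, 103 and 142 CPM in shControl replicates 1, 2 and 3 and 132, 163 and 109 CPM in the shPUS1 libraries. ATR had 32.1, 47.3 and 38.1 CPM in shControl and 34.5, 43.0 and 30.1 CPM in shPUS1. Both kinases overlapped between the groups, with log2 fold changes of 0.27 and -0.13 with 6 libraries (edgeR, adjusted p = 0.436 and 0.705) and 0.21 and 0.03 without shControl replicate 2. Of the 4 kinases 1, CHEK2, had separated groups in both fits. Among all genes 17.3% lay entirely lower with 6 libraries and 26.2% without shControl replicate 2.

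**Figure D2:**
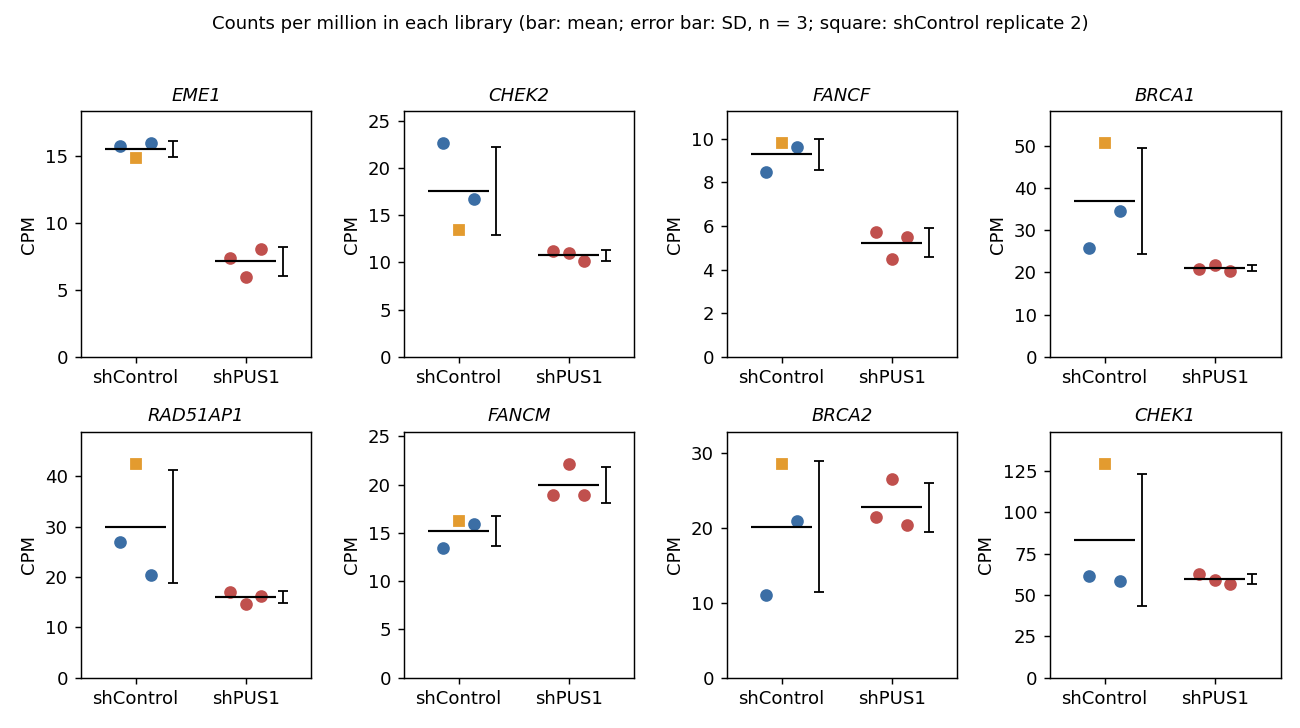
CPM of 8 members in every library, with the mean (line) and SD (error bar, n = 3) of each group and shControl replicate 2 as an orange square. EME1, CHEK2, FANCF, BRCA1 and RAD51AP1 are lower in all shPUS1 libraries, FANCM is higher, and in CHEK1 the 129 CPM of shControl replicate 2 stand above 5 libraries between 56.7 and 62.5 CPM.

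The core complex carries the ubiquitin ligase FANCL together with scaffold and adaptor subunits. FANCF (ENSG00000183161, chromosome 11, 22622533 to 22625823, minus strand), an adaptor that links FANCM to the complex, had 8.48, 9.79 and 9.61 CPM in shControl replicates 1, 2 and 3 and 5.74, 4.49 and 5.48 CPM in the shPUS1 libraries. All shPUS1 values were lower, and shControl replicate 2 was slightly above the other controls. Its log2 fold change was -0.83 ± 0.20 (SE, edgeR, adjusted p = 0.0623) with 6 libraries and -0.80 ± 0.17 (adjusted p = 0.0173) without shControl replicate 2. Among the left-out libraries of that fit, the call was lost without shPUS1 replicate 1 or 2 (adjusted p = 0.053 and 0.0652), and the values rest on 82 to 187 counts per library.

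FANCM (ENSG00000187790, chromosome 14, 45135930 to 45200890, plus strand) had 13.4, 16.2 and 15.9 CPM in shControl and 18.9, 22.1 and 18.9 CPM in shPUS1. Every shPUS1 value was above every shControl value, the reverse of FANCF. The log2 fold change was 0.40 ± 0.16 (SE, edgeR, adjusted p = 0.173) with 6 libraries and 0.44 ± 0.13 (adjusted p = 0.0504) without shControl replicate 2, so the difference did not pass the threshold in either fit. In the latter fit 3 of 11 other settings placed it past the threshold, and leaving out shControl replicate 3 as well gave 0.57 (adjusted p = 0.0242).

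FANCA, the subunit most often mutated in Fanconi anemia, had 31.5, 79.5 and 41.9 CPM in shControl replicates 1, 2 and 3 and 38.7, 37.0 and 31.3 CPM in shPUS1. The groups overlapped, and the log2 fold change went from -0.52 with 6 libraries to -0.05 without shControl replicate 2. The ligase FANCL behaved alike, with means of 11.6 ± 5.86 CPM in shControl and 7.20 ± 1.39 CPM in shPUS1 and log2 fold changes of -0.69 and -0.22.

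The remaining subunits were nearer to their controls. FANCG, a scaffold subunit, was lower in all 3 shPUS1 libraries at 28.8 ± 0.265 CPM against 34.4 ± 4.82 CPM in shControl (SD, n = 3), with a log2 fold change of -0.26 that did not pass the test (edgeR, adjusted p = 0.298). FANCE, which contacts FANCD2, averaged 29.5 CPM in shControl and 26.3 CPM in shPUS1. FANCC, its partner, averaged 24.6 and 19.6 CPM, and FANCB, which holds FANCL, 4.48 and 4.40 CPM. All 3 overlapped between the groups, with log2 fold changes of -0.16, -0.33 and -0.03 with 6 libraries and -0.10, -0.01 and 0.25 without shControl replicate 2. For FANCA, 23.6% of the exonic bases overlap ZNF276 on the opposite strand, and for FANCL 18.7% overlap VRK2.

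FANCD2 and FANCI form the clamp that receives ubiquitin and closes around DNA. FANCD2 had 36.5, 59.7 and 39.2 CPM in shControl replicates 1, 2 and 3 and 32.1, 33.6 and 28.7 CPM in the shPUS1 libraries. The groups did not overlap, but the log2 fold changes of -0.52 ± 0.20 with 6 libraries and -0.27 ± 0.10 without shControl replicate 2 did not pass the test (SE, edgeR, adjusted p = 0.166 and 0.103). FANCI averaged 78.5 ± 22.6 CPM in shControl and 62.1 ± 3.38 CPM in shPUS1 (SD, n = 3) with overlapping groups, and its log2 fold changes were -0.34 and, without shControl replicate 2, -0.08.

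BRCA1 and BARD1 form a ubiquitin ligase that favours end resection, PALB2 bridges BRCA1 to BRCA2, BRCA2 acts after resection, and BRIP1 is a helicase bound by BRCA1. BRCA1 (ENSG00000012048, chromosome 17, 43044295 to 43170245, minus strand) had 25.8, 50.5 and 34.5 CPM in shControl replicates 1, 2 and 3 and 20.8, 21.7 and 20.3 CPM in the shPUS1 libraries. The shPUS1 libraries were close together and all below the lowest control, while the 3 controls were far apart. The log2 fold change was -0.82 ± 0.24 (SE, edgeR, adjusted p = 0.0935) with 6 libraries and -0.53 ± 0.13 (adjusted p = 0.0276) without shControl replicate 2. In the latter fit 7 of 11 other settings also called BRCA1, and the call was lost without shControl replicate 3 (-0.31, adjusted p = 0.0923) or any shPUS1 library (adjusted p = 0.077 to 0.106).

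BRCA2 had 11.1, 28.5 and 20.9 CPM in shControl replicates 1, 2 and 3 and 21.4, 26.5 and 20.4 CPM in the shPUS1 libraries. The 3 controls spanned the whole range of the shPUS1 libraries, with shControl replicate 1 lowest and replicate 2 highest of all 6. Its log2 fold changes of 0.17 and, without shControl replicate 2, 0.51 did not pass the test (edgeR, adjusted p = 0.755 and 0.171).

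BARD1 averaged 23.9 ± 10.8 CPM in shControl and 16.6 ± 1.81 CPM in shPUS1 (SD, n = 3), with log2 fold changes of -0.53 and, without shControl replicate 2, -0.11. PALB2 averaged 16 ± 2.58 and 16.5 ± 0.879 CPM, and BRIP1 34.8 ± 16.1 and 31.5 ± 3.60 CPM. BRIP1 and PALB2 were higher in all shPUS1 libraries than in shControl replicates 1 and 3, with log2 fold changes of 0.29 and 0.18 against them, and lower than in shControl replicate 2, with -0.15 and 0.04 against all 3 controls. Neither passed the test (edgeR, adjusted p = 0.133 and 0.318). Of these 5 genes 1, BRCA1, was lower in every shPUS1 library than in every control in both fits. Among all genes 17.3% were so with 6 libraries and 26.2% without shControl replicate 2.

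The related proteins RAD51B, RAD51C, RAD51D, XRCC2 and XRCC3 form a pair of complexes that promote recombination. RAD51C, a subunit of both complexes, was below all controls in the shPUS1 libraries, at 10.4 ± 1.06 CPM against 17.5 ± 6.87 CPM (SD, n = 3). Its log2 fold change was -0.75 with 6 libraries and -0.39 without shControl replicate 2 (edgeR, adjusted p = 0.149 and 0.0948). RAD51D showed the widest control spread of the members relative to its level, at 11 ± 7.11 CPM in shControl and 6.11 ± 1.16 CPM in shPUS1.

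The log2 fold change of RAD51D moved from -0.85 to -0.19 and that of XRCC2 from -0.62 to -0.03 without shControl replicate 2. XRCC2 averaged 27.7 CPM in shControl and 18.1 CPM in shPUS1, XRCC3 17.5 and 14.8 CPM, and RAD51B 4.33 and 3.11 CPM. The log2 fold changes of XRCC3 were -0.24 and, without shControl replicate 2, 0.03, and those of RAD51B -0.48 and -0.31. None of the 5 genes passed the test in either fit, and 1 of 5 in each fit had an unadjusted p under 0.05 by edgeR. For XRCC3, 76.7% of the exonic bases overlap KLC1 on the opposite strand, so its value is uncertain, and RAD51D shares 7.03% of its 100-base stretches with the readthrough gene RAD51L3-RFFL.

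RAD51AP1 stimulates strand invasion, and RAD54L and RAD54B are motor proteins that move along DNA during it. RAD51AP1 (ENSG00000111247, chromosome 12, 4538798 to 4560047, plus strand) had 27.0, 42.4 and 20.5 CPM in shControl replicates 1, 2 and 3 and 17.1, 14.7 and 16.2 CPM in the shPUS1 libraries. All shPUS1 values lay below the lowest control. Its log2 fold change was -0.91 ± 0.26 (SE, edgeR, adjusted p = 0.0922) with 6 libraries and -0.58 ± 0.14 (adjusted p = 0.0278) without shControl replicate 2. In the latter fit 10 of 11 other settings also called RAD51AP1, and the replicate block did not (edgeR, adjusted p = 0.143). Among the left-out libraries of that fit, the call was lost without shControl replicate 1 (-0.35, adjusted p = 0.132) or any shPUS1 library (adjusted p = 0.0628 to 0.0975).

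The motor proteins were at similar levels in both groups. RAD54L averaged 51.2 ± 7.40 CPM in shControl and 47.4 ± 1.92 CPM in shPUS1 (SD, n = 3), and its log2 fold change was -0.11 ± 0.14 with 6 libraries and 0.00 ± 0.10 without shControl replicate 2 (SE, edgeR). RAD54B averaged 28.9 ± 6.52 and 26.4 ± 0.547 CPM, with log2 fold changes of -0.13 and 0.06, and its reads are shared with FSBP over 53.6% of its 100-base stretches. In RAD54L 25.1% of the exonic bases overlap LRRC41 on the opposite strand.

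MRE11, RAD50 and NBN form the complex that senses and trims broken ends, RBBP8 (CtIP) activates its nuclease, and EXO1 resects further. Of these 5 genes 4 were lower in every shPUS1 library than in every control, beside 17.3% of all genes with 6 libraries and 26.2% without shControl replicate 2, and none was called in either fit. RAD50 averaged 66.6 ± 6.86 CPM in shControl and 48.7 ± 6.35 CPM in shPUS1 (SD, n = 3), with log2 fold changes of -0.45 and, without shControl replicate 2, -0.41 (edgeR, adjusted p = 0.117 and 0.0618). RAD50 shares 75.7% of its 100-base stretches with a readthrough gene (ENSG00000283782) that had a log2 fold change of 1.07 without shControl replicate 2 (edgeR, adjusted p = 0.0211), so its counts are uncertain.

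MRE11 averaged 71.4 ± 9.85 CPM in shControl and 58.9 ± 3.82 CPM in shPUS1, and NBN 76.8 ± 31.7 and 50.1 ± 1.96 CPM. The log2 fold changes of MRE11 were -0.28 and, without shControl replicate 2, -0.17, and those of NBN -0.62 and -0.23. EXO1 averaged 33.3 ± 16.9 and 19.0 ± 1.31 CPM, with log2 fold changes of -0.82 and, without shControl replicate 2, -0.32 (edgeR, adjusted p = 0.163 and 0.0752). RBBP8 was the member of this group with overlapping levels, at 54.9 ± 32.9 CPM in shControl and 35 ± 4.01 CPM in shPUS1, and its log2 fold change went from -0.65 to -0.05. In NBN, EXO1 and RBBP8 the level in shControl replicate 2 was 1.94, 2.24 and 2.57 times the mean of the other controls.

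**Figure D3:**
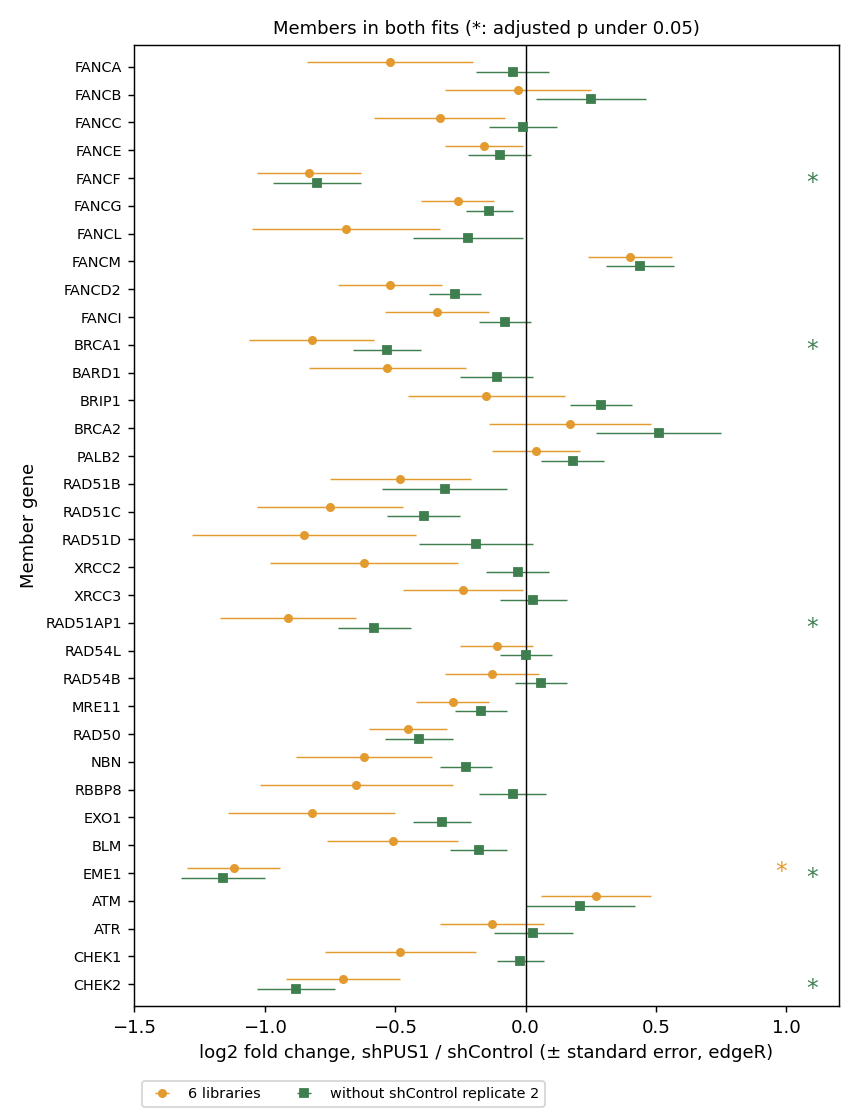
log2 fold change of shPUS1 over shControl with its standard error (edgeR) for every member with 6 libraries (orange circles) and without shControl replicate 2 (green squares); asterisks mark an adjusted p under 0.05. Most members move toward 0 without that library, EME1, FANCF and RAD50 stay in place, and CHEK2 moves farther below 0.

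Across the 34 members 30 had a negative log2 fold change with 6 libraries, beside 7770 of 14748 genes tested. It was negative in 24 members without shControl replicate 2, beside 7890 of 15130 genes. The lowest and highest values in the latter fit were -1.16 in EME1 and 0.51 in BRCA2.

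Levels can be compared between genes on the FPKM scale, which divides by length. Averaged over the 6 libraries, CHEK1 (12.6 ± 4.76 FPKM, SD, n = 6) and RAD54L (12.1 ± 1.11 FPKM) were highest, followed by FANCE and NBN (10.3 ± 1.13 and 10.3 ± 3.84 FPKM), and RAD51D (0.753 ± 0.448 FPKM) and RAD51B (0.498 ± 0.130 FPKM) were lowest. RAD54L was above CHEK1 in each library except shControl replicate 2, where CHEK1 was at 22.3 FPKM. The ranges of these 4 highest members overlapped over libraries. BRCA1, at 3.10 ± 1.24 FPKM, and BRCA2, at 1.67 ± 0.457 FPKM, ranged from 2.16 to 5.28 and from 0.88 to 2.17 FPKM. The ranges touched only between different libraries, shPUS1 replicate 3 for BRCA1 and shControl replicate 2 for BRCA2. Within each library BRCA1 was above BRCA2. EME1 averaged 4.73 FPKM in shControl and 2.14 FPKM in shPUS1.

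**Figure D4:**
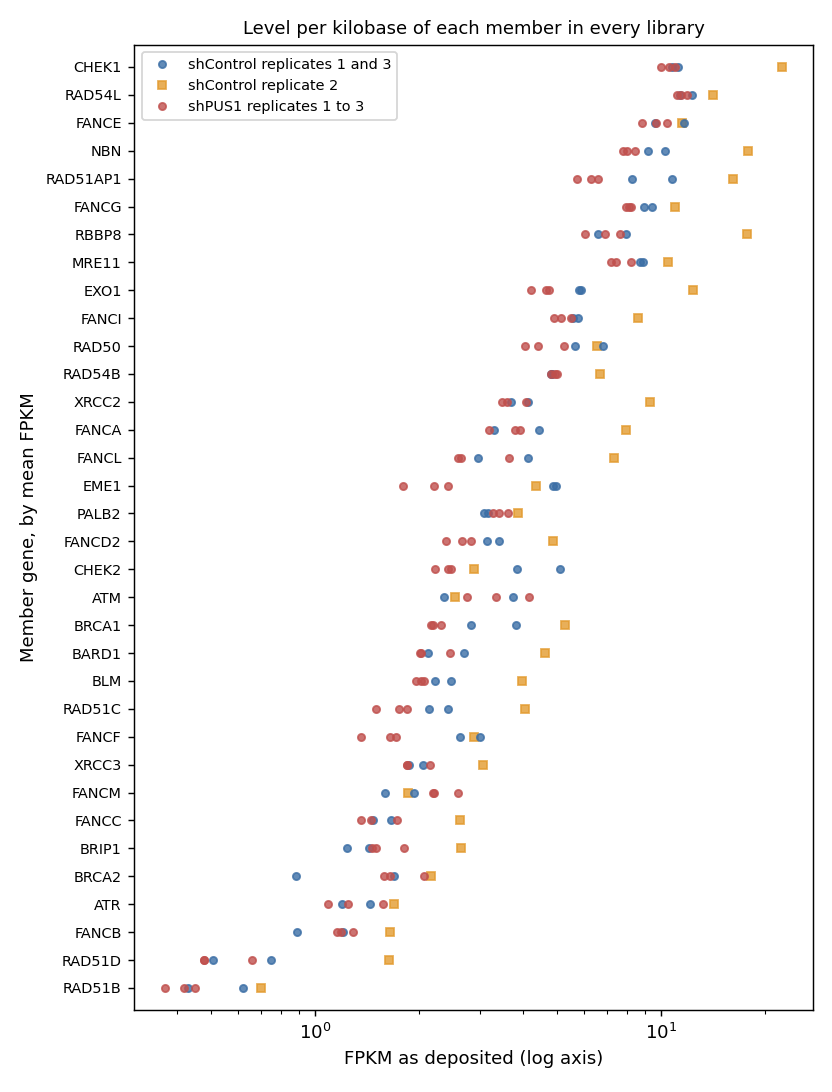
FPKM of each member in every library on a log axis, ordered by the mean, with shControl replicate 2 as orange squares. Levels run from 0.37 FPKM in RAD51B to 22.3 FPKM in CHEK1, and the orange square is the rightmost point in most rows.

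Long mRNAs differed between the remaining controls. The median log2 ratio of shControl replicate 3 to replicate 1 increased with exonic length over genes with a mean above 5 CPM, from -0.17 under 2 kb to 0.20 over 8 kb, and over the 12 members above 8 kb it was 0.25. Across the 34 members the log2 of exonic length and this ratio had r = 0.49 and rho = 0.42, as a description of 2 libraries. ATM and BRCA2, with 39184 and 12778 exonic bases, had ratios of 0.64 and 0.92, and EME1, with 3294 exonic bases, had 0.01. The part of this trend in the fold changes of the long members was not tested.

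Other genes of the same pathways were read from lists of names, and the shares over all genes are repeated beside their counts. Of 17 other Fanconi pathway genes, 0 were called with 6 libraries by edgeR, where 3 were lower and 1 higher at an unadjusted p under 0.05, beside 12.8% and 12.6% of all genes, and 3 fell without shControl replicate 2, beside 8.79%. These were the nuclease FAN1 at a log2 fold change of -0.45 ± 0.10, UBE2T, the ubiquitin-conjugating enzyme of FANCL, at -0.42 ± 0.11, and the chromatin factor UHRF1 at -0.35 ± 0.10 (SE, edgeR, adjusted p = 0.0207, 0.0286 and 0.0368). The list had a median of -0.08 with 6 libraries and -0.12 without shControl replicate 2.

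Of 40 other homologous recombination genes 37 passed the filter. Again 0 were called with 6 libraries by edgeR, where 10 were lower and 1 higher at an unadjusted p under 0.05, beside 12.8% and 12.6% of all genes. Without shControl replicate 2 the helicase RECQL5, the replication protein subunit RPA3 and the nuclease DNA2 fell, which is 3 of 37 beside 8.79% of all genes, at log2 fold changes of -0.54, -0.58 and -0.44 (edgeR, adjusted p = 0.0188, 0.0265 and 0.0356).

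By edgeR, checkpoint and end joining genes were called only without shControl replicate 2, in both directions. Of 18 tested checkpoint signalling genes 4 rose and 1 fell without shControl replicate 2, beside 9.8% higher and 8.79% lower among all genes, and 0 were called with 6 libraries by edgeR, where 3 were higher and 3 lower at an unadjusted p under 0.05, beside 12.6% and 12.8%. The kinase WEE1, which restrains entry into mitosis, the ubiquitin ligase RNF168 and its reader TP53BP1 rose by 0.49, 0.39 and 0.53 on the log2 scale (edgeR, adjusted p = 0.0134, 0.0193 and 0.0225). Of 16 end joining genes 2 rose and 2 fell in that fit, near the 9.8% and 8.79% of all genes, with 0 called with 6 libraries by edgeR, where 2 were higher and 1 lower at an unadjusted p under 0.05, beside 12.6% and 12.8%. LIG4, the ligase of end joining, rose by 0.78 ± 0.12 (SE, edgeR, adjusted p = 0.00537), with 27.2, 30.1 and 21.9 CPM in shControl and 39.8, 44.1 and 42.7 CPM in shPUS1. SHLD1 was at 0.136 to 0.629 CPM in shControl and 0.723 to 1.30 CPM in shPUS1, too few counts for a firm size. POLL, a gap-filling polymerase, fell by 0.54 on the log2 scale without shControl replicate 2 (edgeR, adjusted p = 0.0357). With all 6 libraries its log2 fold change was -0.33 (edgeR, adjusted p = 0.404), and shControl replicate 2, at 13.2 CPM, was its lowest library.

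The S phase and proliferation list moved beside the members. With 6 libraries 1 of its 23 genes fell, beside 0.841% of all genes, namely CCNA2 (cyclin A2), which had 143, 193 and 129 CPM in shControl and 67.7, 67.0 and 75.3 CPM in shPUS1, with log2 fold changes of -1.15 and -0.96 in the fits with and without shControl replicate 2 (edgeR, adjusted p = 0.0318 and 0.00113). Without that library 7 fell and 3 rose, beside 8.79% and 9.8% of all genes. The falls with the smallest p were CCNA2, the replication licensing factor CDT1 at -0.68 and the ribonucleotide reductase subunit RRM2 at -0.48. Cyclin E2 (CCNE2), at -0.83, fell as well, while the rises, named after their values were seen, were cyclin E1 (CCNE1), FOXM1 and CDC6 at 0.75, 0.46 and 0.38. The list's median was -0.77 with 6 libraries and -0.29 without shControl replicate 2. The part of these S phase mRNAs in the members' values was not tested.

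**Figure D5:**
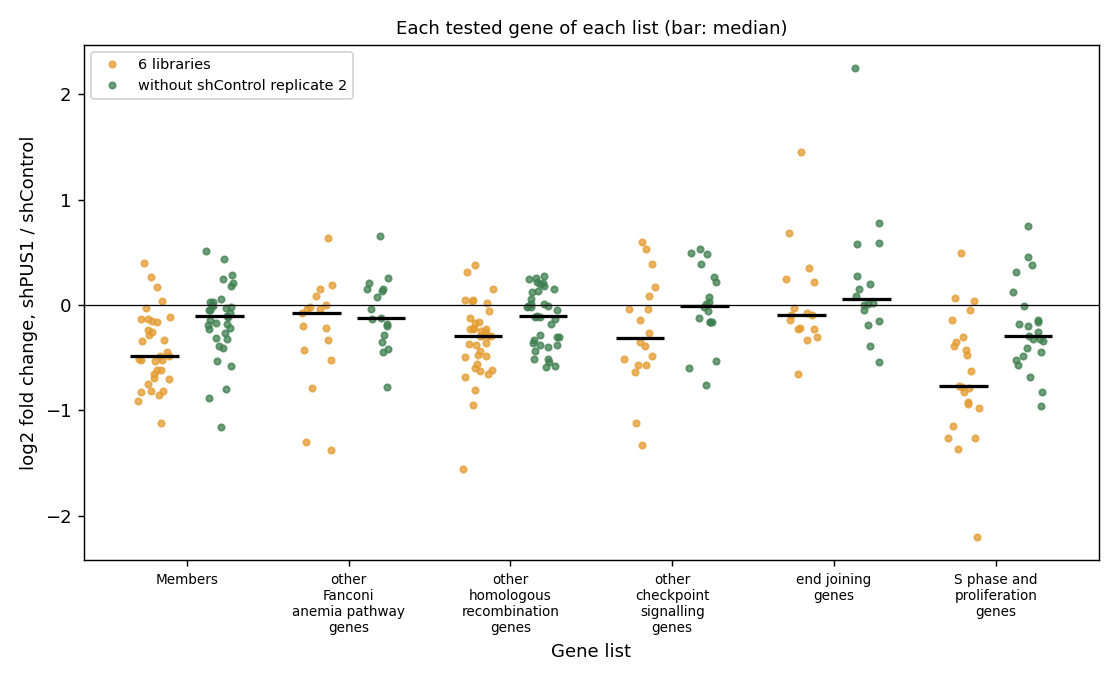
log2 fold change of shPUS1 over shControl for each tested gene of the members and of 5 other lists, with 6 libraries (orange) and without shControl replicate 2 (green), and the median as a bar. The median of the members moves from -0.48 to -0.11 and that of the S phase list from -0.77 to -0.29.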

How the data were processed

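The 6 libraries, 3 a group, held poly(A)-selected RNA and were sequenced in pairs of reads. Per the methods and the labels, the authors aligned reads with HISAT2 and counted them with HTSeq 0.6.1. The deposited estimated counts are not normalized, and in each library 29.8% to 31.8% of those above 0 had a fractional part, so they were rounded. The deposited FPKM values were made by the authors per kilobase of exon and per library total. The build, strandedness and handling of multiply mapped reads are not given in the sources used here. Of the 60605 identifiers 58337 are in GENCODE release 29 (GRCh38), and 99.84% of these overlap its coordinates. Start and end were the same in 74.7% of these and in 38.2% of the members.

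Columns were matched to groups by their names. Counts were filtered with filterByExpr, scaled by TMM (factors 0.973 to 1.032) and compared by quasi-likelihood in edgeR 4.0.16 (R 4.3.3) with a prior count of 0.125 and Benjamini-Hochberg adjustment over all genes tested, once with 6 libraries and once without shControl replicate 2. CPM are TMM-scaled, and standard errors were derived from the F statistic. Standard errors and SDs cover the spread between libraries. DESeq2 1.42.0 and limma 3.58.1 gave alternatives, namely other normalizations and filters, voom with sample weights, log2(FPKM + 0.1, 0.5 or 1) for genes whose mean FPKM reached 0.5, the replicate number as a block and each library left out. Figures used matplotlib 3.10.9 in Python 3.11.15. Promoters of 31 of 34 members were matched by symbol in the RefSeq table.

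The members and lists were chosen with earlier results of these data known. Named were PUS1, all members, in each library those called in either fit and BRCA1, BRCA2, FANCD2, FANCA, ATM, ATR and CHEK1, and up to 3 genes with the smallest p of each other list; CCNE2 and the rises of the S phase list and COL1A1 were named after their values were seen. Promoters were those with the largest fold changes among members without overlap of the groups, up to 3 in each direction and none on chromosome 8. Some results of the lists are not reported here.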

Additional observations from a re-analysis of the deposited data

How the results depend on the processing

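With 6 libraries the count of members called lower was 1, and it became 3 with no filter on low counts, 5 with DESeq2, 5 with voom and sample weights, 4 at an adjusted p under 0.1 and 0 with the replicate block, and it ranged from 0 to 5 when 1 library was left out, 5 being the value without shControl replicate 2. The count past a log2 fold change of 1 was 1 and became 0 with limma at pseudocounts of 0.5 and 1 and with the replicate block, and it ranged from 0 to 1 when 1 library was left out, 0 being the value without shControl replicate 1 or any shPUS1 library. The count called higher stayed at 0 in each of these settings.

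Without shControl replicate 2 the count called higher was 0 and became 1 with DESeq2 size factors, 1 with quantile normalization, 2 with no filter on low counts and 1 at an adjusted p under 0.1 (FANCM in each, with BRCA2 where 2 were called), and it ranged from 0 to 3 when 1 more library was left out, 3 (FANCM, BRCA2 and ATM) being the value without shControl replicate 3. The count called lower was 5 and became 2 with the replicate block and 8 at an adjusted p under 0.1, and it ranged from 2 to 5 over the left-out libraries, the lowest without shPUS1 replicate 1 or 2. The count past a log2 fold change of 1 became 0 with a pseudocount of 1 and ranged from 1 to 3 when 1 more library was left out, 3 again without shControl replicate 3.

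The PUS1 log2 fold change of -1.64 became -1.48, -1.22 and -1 with limma at pseudocounts of 0.1, 0.5 and 1 and -1.55 with the replicate block, none of them past the threshold (adjusted p = 0.0549, 0.0541, 0.0569 and 0.0969), and ranged from -1.86 to -1.20 when 1 library was left out, past the threshold only without shControl replicate 2 or 3. The cause of these changes was not tested. The members' median log2 fold change of -0.48 with 6 libraries became -0.14 with voom and sample weights. It was -0.11 without shControl replicate 2 and -0.63 without shControl replicate 3, and lay between -0.51 and -0.34 in the remaining settings. Equal replicate numbers marked no pairing, with residual correlations of -0.08, -0.06 and -0.28 between the shControl and shPUS1 library of each number.

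Over single members with 6 libraries, 358 of 369 values outside the left-out libraries stayed on their side of the threshold, 10 newly passed it and 1 no longer did, and 7 that were not called changed sign. Of 204 values with 1 library left out 196 stayed, 4 newly passed and 4 no longer did, and 9 that were not called changed sign.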
